A study of Homo sapiens with 6 samples.

Results

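The genes described here are 8 drug efflux transporters of the ATP-binding cassette (ABC) superfamily: ABCB1, ABCC1, ABCC2, ABCC3, ABCC4, ABCC5, ABCC10 and ABCG2. They were chosen by symbol, and all 8 were among the 27134 genes of the table and among the 21775 that passed a filter on low values. RNA was sequenced from KM12, an established human colorectal cancer line, at passages 10 to 15. In 3 libraries the cells overexpressed CDO1, the cysteine dioxygenase that oxidises cysteine to cysteine sulfinate, and in the other 3 they were mock controls. The labels give neither the vector and promoter of CDO1 nor whether the overexpressing cells were 1 clone or a pool, nor do they say if the replicates were separately cultured. The p-values therefore rest on library-to-library spread alone, and that spread may be technical.

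ABC transporters use ATP bound by their nucleotide-binding domains to move substrates across a membrane. ABCB1, or P-glycoprotein, and ABCG2, the breast cancer resistance protein, sit on the apical face of intestinal epithelium and return many hydrophobic drugs to the lumen. The ABCC proteins, or multidrug resistance-associated proteins, carry glutathione, glucuronide and sulfate conjugates, with ABCC2 on the apical face and ABCC1 and ABCC3 on the basolateral face. ABCC4 and ABCC5 export cyclic nucleotides and nucleotide analogues, and ABCC10 transports taxanes among other substrates. These carriers are studied in colorectal cancer because irinotecan and its metabolites are substrates of several of them.

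The promoter windows of ABCB1, ABCC2 and ABCG2 are printed because these were the 3 members with the largest changes. The RefSeq table on GRCh38.p14 holds windows for 6 of the 8 members, namely these 3, ABCC4, ABCC5 and ABCC10, each running from 250 bases before a start to 50 after it. The windows lie at chr7:87600835-87601134 on the minus strand, chr10:99782390-99782689 on the plus strand and chr4:88158860-88159159 on the minus strand. Capitals mark matches on either strand to CCAAT (the CCAAT box), GGGCGG (the GC box), GCGTG (the core of the xenobiotic response element) and TGANNNNGC. The last is a loose form of the core of the antioxidant response element, with any base allowed after TGA. It is called the antioxidant core below, and a match to it need not fit the stricter element.
ABCB1: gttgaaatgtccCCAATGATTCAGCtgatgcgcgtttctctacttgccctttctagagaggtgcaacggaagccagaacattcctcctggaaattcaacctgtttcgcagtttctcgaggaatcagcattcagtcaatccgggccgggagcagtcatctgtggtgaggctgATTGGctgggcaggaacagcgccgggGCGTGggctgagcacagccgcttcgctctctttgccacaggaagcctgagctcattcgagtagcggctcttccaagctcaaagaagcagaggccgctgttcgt
ABCC2: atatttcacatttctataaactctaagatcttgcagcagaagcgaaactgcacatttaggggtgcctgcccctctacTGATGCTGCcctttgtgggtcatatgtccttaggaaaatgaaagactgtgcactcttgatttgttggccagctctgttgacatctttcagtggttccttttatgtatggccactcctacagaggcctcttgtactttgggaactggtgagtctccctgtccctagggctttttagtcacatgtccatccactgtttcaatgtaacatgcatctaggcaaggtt
ABCG2: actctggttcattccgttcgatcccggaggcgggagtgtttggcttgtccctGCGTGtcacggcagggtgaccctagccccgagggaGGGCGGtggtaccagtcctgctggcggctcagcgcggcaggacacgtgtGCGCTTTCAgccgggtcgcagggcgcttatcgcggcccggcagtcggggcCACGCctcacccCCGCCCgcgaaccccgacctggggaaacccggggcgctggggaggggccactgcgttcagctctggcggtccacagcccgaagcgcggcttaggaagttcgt
The ABCB1 window holds 2 CCAAT matches, 1 forward and 1 inverted, the latter a known element of this promoter. Its forward CCAAT overlaps the antioxidant core by a base, and it also has 1 GCGTG. The ABCC2 window holds 1 match, to the antioxidant core, and no match to the other motifs. The ABCG2 window holds 2 GC boxes, 2 xenobiotic cores and 1 antioxidant core. Of 35116 promoter windows of this length in the table, 34.6% hold CCAAT, 45.0% GGGCGG, 36.5% GCGTG and 41.8% TGANNNNGC, so none of these matches is rare. ABCB1 has a second window, at chr7:87713246-87713545, with no match to any of the 4 motifs. It holds 2 of the 3 coding transcript starts of ABCB1 in GENCODE 29, and the printed window holds 1. ABCG2 has 4 further windows, and their matches differ. That at chr4:88231577-88231876 has no match, and that at chr4:88159241-88159540 has only 2 antioxidant cores. Which starts were in use in these cells was not measured.

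Reads assigned to genes totalled 17516640 to 22198173 per library. CDO1 itself ranged from 2332.78 to 2483.91 normalised counts where it was overexpressed, against 68.11, 0 and 0 in mock replicates 1, 2 and 3. The authors' deposited table nevertheless gives CDO1 a log2 fold change of 0.09 (adjusted p = 0.416), which its own library values do not bear out. A normalised count is the number of reads divided by the size factor of its library. Mock replicate 1 stood apart at scarce transcripts: 73 genes reached at least 10 normalised counts there and at least 5 times the level of both other mock libraries, against 1 to 3 genes in each other library within its own group. None of the 8 transporters was among them, but 10 genes of the related lists below were, such as the drug oxidase CYP3A4 (20.6 against 1.95 and 0). Each transporter result is therefore also given without that library. Of 10 colorectal epithelial markers, EPCAM, CDH1, CDH17, KRT8, KRT18, KRT20, VIL1 and CDX2 were well expressed, while CDX1 and GPA33 stayed at or below 10.2 normalised counts. Leukocyte markers summed to at most 17.9 normalised counts in any library and red blood cell markers to at most 4.88. Endothelial markers summed to 55.2 to 77.7 with CDO1 and 26.3 to 127 in mock, the highest sum being that of mock replicate 1. Of 6 fibroblast markers 2 were in the table, PDGFRB and COL1A1, and their sum was 130 to 151 with CDO1 and 204 to 293 in mock.

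In cells with CDO1, the apical drug pumps ABCB1 and ABCG2 rose 1.60-fold and 1.68-fold, and ABCC2, the apical conjugate pump, fell 2.16-fold. ABCC1 and ABCC10 fell by 11.1% and 13.4%, and ABCC3, ABCC4 and ABCC5 did not pass the test. By limma at an adjusted p of 0.05, 2 of 8 members rose and 3 fell, where 24.0% of all genes tested passed, 11.3% higher and 12.7% lower. Here and below, the share over all genes is not matched for expression level. Of the 21775 genes tested, 10941 had a mean of at least 100 normalised counts. In edgeR, which tested 15184 genes, 35.7% passed. The median log2 fold change was 0.00 over the 8 members and 0.00 over all genes tested. Values of the groups did not overlap for 7 of the 8 members, 4 with CDO1 higher and 3 with CDO1 lower, against 37.1% of all genes, 18.3% higher and 18.9% lower. Epithelial markers moved with the groups: 8 of the 10 rose, and their summed level was 167862 to 179361 normalised counts with CDO1 and 117580 to 122206 in mock. Their part in the transporter results was not tested, and a change in the share of a kind of cell cannot be told apart from a change of RNA per cell. The members called lower dropped from 3 to 1, ABCC2 each time, without mock replicate 1 (9.91% of all genes lower), mock replicate 2 (11.6%), CDO1 replicate 1 (10.2%) or CDO1 replicate 3 (10.4%).

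**Figure D1:**
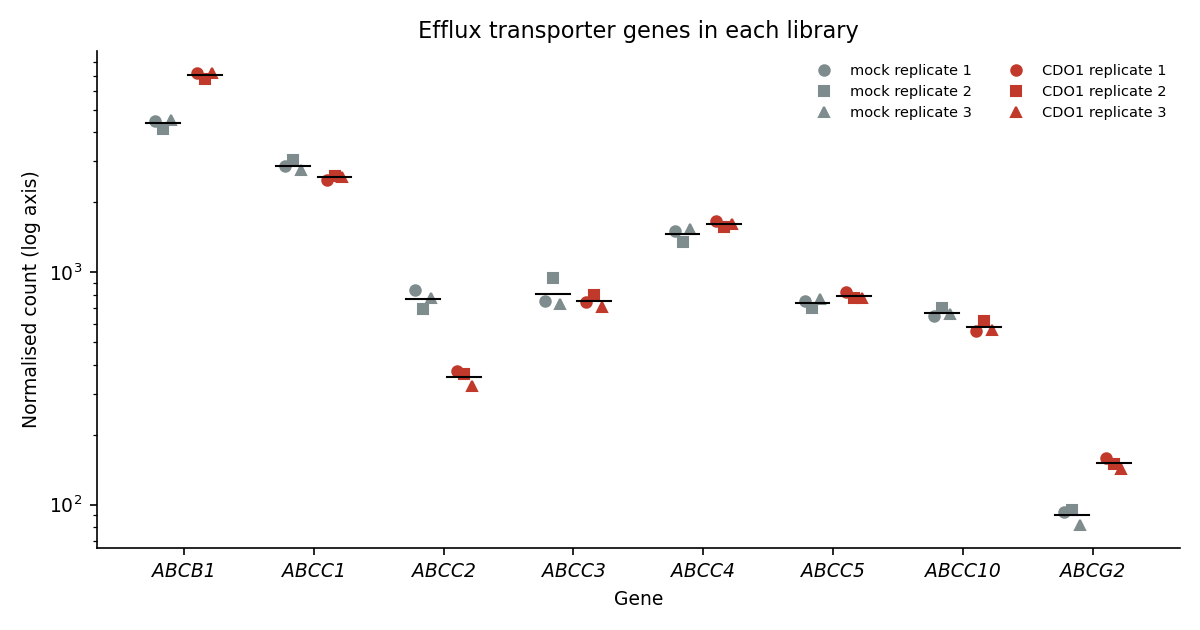
Normalised count on a log axis for the 8 transporter genes, drawn library by library: mock in grey, CDO1 in red, replicates told apart by point shape, group means as short lines. ABCB1 and ABCG2 lie higher in all 3 CDO1 libraries, ABCC2 lies lower in all 3, and only ABCC3 has groups that overlap.

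ABCB1 (ENSG00000085563, GRCh38 chromosome 7, 87503633 to 87713323, minus strand) was at 7153.95, 6764.71 and 7153.55 normalised counts in CDO1 replicates 1 to 3. In mock replicates 1 to 3 it was at 4473.72, 4138.15 and 4521.75. The lowest CDO1 library was thus well above the highest mock library. The means were 7024 ± 225 and 4378 ± 209 (SD, n = 3). The log2 fold change in limma, on log2 of the normalised count plus 1, was 0.68 ± 0.05 (SE; 95% interval 0.57 to 0.79; adjusted p = 4.13e-09), and it was 0.70 without mock replicate 1. With 3997 to 7789 reads per library, ABCB1 was the most deeply read member.

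ABCG2 (ENSG00000118777, chromosome 4, 88090264 to 88231322, minus strand) was the scarcest member, with 72 to 161 reads per library. It stood at 158.76, 149.99 and 142.35 normalised counts in CDO1 replicates 1 to 3 and at 93.20, 94.60 and 81.45 in mock replicates 1 to 3. All CDO1 libraries were above all mock libraries. The means were 150 ± 8.21 and 89.8 ± 7.22 (SD, n = 3), and the log2 fold change in limma was 0.74 ± 0.12 (SE; 95% interval 0.48 to 1.00; adjusted p = 0.000149). Its interval is wider than that of ABCB1 and contains the whole interval of ABCB1. Without mock replicate 1 the log2 fold change of ABCG2 was 0.77 (adjusted p = 0.000489 in limma).

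ABCC2 (ENSG00000023839, chromosome 10, 99782640 to 99852594, plus strand) moved the other way. Its normalised counts were 374.71, 365.66 and 323.28 in CDO1 replicates 1 to 3 and 835.24, 694.41 and 771.54 in mock replicates 1 to 3. The highest CDO1 value was little more than the midpoint between 0 and the lowest mock value. The means were 355 ± 27.5 and 767 ± 70.5 (SD, n = 3), with a log2 fold change in limma of -1.11 ± 0.08 (SE; 95% interval -1.28 to -0.94; adjusted p = 2.86e-09). Among the 10941 genes with a mean of at least 100 normalised counts, 2.76% changed by at least as much in either direction, against 5.21% for ABCG2 and 6.03% for ABCB1. Leaving out mock replicate 1 gave -1.05.

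ABCC1, which exports glutathione conjugates and leukotriene C4, and ABCC10 showed small falls. ABCC1 (ENSG00000103222, chromosome 16, 15949577 to 16143074, plus strand) was at 2499.69, 2589.18 and 2571.57 normalised counts with CDO1 and at 2848.95, 3028.27 and 2737.71 in mock. The groups were close together but did not overlap. Its log2 fold change in limma was -0.17 ± 0.05 (SE; adjusted p = 0.0258). That call ended without CDO1 replicate 1 (adjusted p = 0.115 in limma), CDO1 replicate 3 (0.0763), mock replicate 1 (0.0864) or mock replicate 2 (0.0866).

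ABCC10 (ENSG00000124574, chromosome 6, 43427366 to 43450430, plus strand) was at 559.10, 613.08 and 564.83 normalised counts with CDO1 and at 646.14, 701.23 and 657.28 in mock. Replicate 2 was the highest of both groups, and the highest CDO1 library was below the lowest mock library. The log2 fold change was -0.21 ± 0.07 (SE; adjusted p = 0.0351 in limma). It did not pass in DESeq2 (adjusted p = 0.0727) or in the authors' deposited table (0.0693). In limma it was lost without CDO1 replicate 1 (adjusted p = 0.141), CDO1 replicate 3 (0.127), mock replicate 1 (0.0664) or mock replicate 2 (0.101).

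ABCC4, ABCC5 and ABCC3 did not pass, and their intervals bound the change that these libraries leave possible. ABCC4 (ENSG00000125257, chromosome 13, 95019829 to 95301475, minus strand) was at 1656.60, 1567.74 and 1601.72 normalised counts with CDO1 and at 1493.93, 1350.78 and 1526.10 in mock. The CDO1 libraries lay above the mock libraries by a narrow margin, with a log2 fold change of 0.14 ± 0.06 (SE; 95% interval 0.02 to 0.27; adjusted p = 0.0888 in limma), and without mock replicate 1 it was 0.16 (adjusted p = 0.141). Without mock replicate 3 it was 0.18 with an adjusted p of 0.0347 in limma. ABCC5 (ENSG00000114770, chromosome 3, 183919934 to 184018015, minus strand) was at 824.36, 774.02 and 771.47 against 751.00, 702.21 and 763.62 normalised counts. Its groups were nearly touching, and the interval of the log2 fold change ran from -0.04 to 0.23 around 0.10 (adjusted p = 0.326 in limma), and without mock replicate 1 the log2 fold change was 0.11 (adjusted p = 0.413 in limma).

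ABCC3 (ENSG00000108846, chromosome 17, 50634777 to 50692252, plus strand), the basolateral conjugate pump, was at 739.55, 797.01 and 709.02 normalised counts with CDO1 and at 747.41, 939.20 and 728.55 in mock. It was the only member whose groups overlapped, and mock replicate 2 was above every other library. The log2 fold change was -0.10 (95% interval -0.27 to 0.08; adjusted p = 0.461 in limma). Without mock replicate 1 it was -0.15 (adjusted p = 0.336 in limma), and without mock replicate 2 it turned to 0.02. In fold terms the interval runs from 0.828 to 1.06, so it leaves out a fall as large as that of ABCC2, whose interval is 0.411 to 0.522.

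**Figure D2:**
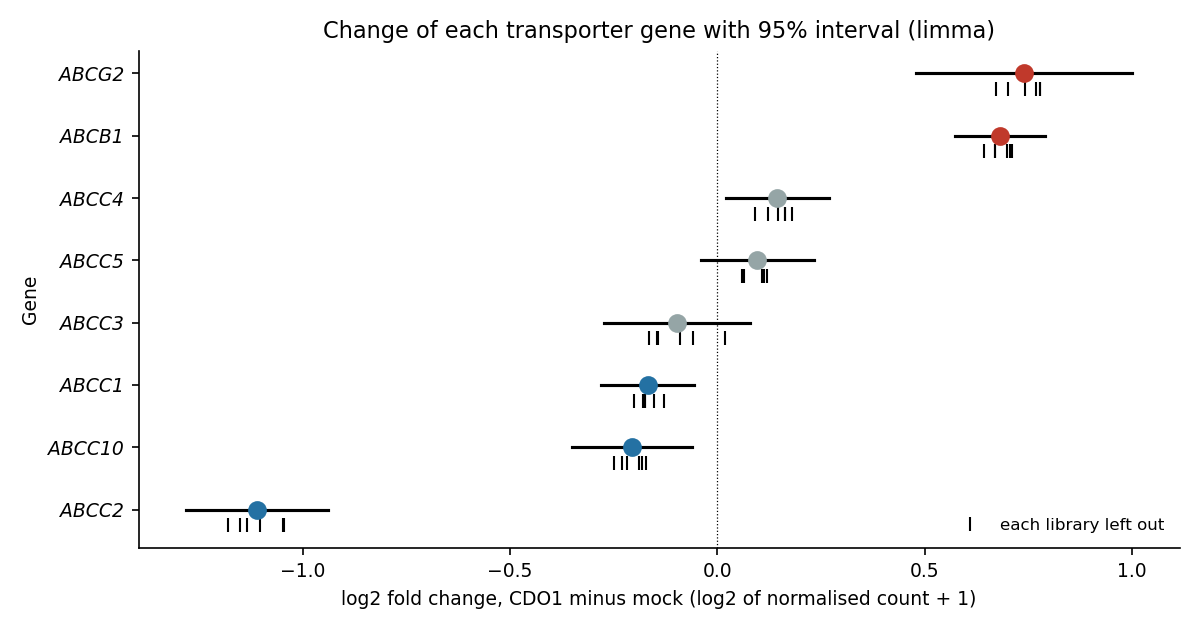
Change of each transporter gene in limma, as a log2 fold change of CDO1 over mock, with the 95% interval as a bar and a tick for the value with each library left out. Members called higher are red, those called lower blue and the rest grey. ABCB1 at 0.68, ABCG2 at 0.74 and ABCC2 at -1.11 stand away from the other 5.

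The levels were compared between genes per kilobase of merged exons, on the GENCODE 29 gene models. ABCB1 was the most abundant of the 8 in both groups, at 1210 ± 38.7 normalised counts per kilobase with CDO1 and 754 ± 36.0 in mock (SD, n = 3). ABCC1 followed at 337 ± 6.26 and 379 ± 19.4, and ABCC4 at 186 ± 5.19 and 169 ± 10.8. The ranges of these 3 were separate in both groups. ABCG2 was the lowest, at 29.8 ± 1.63 with CDO1 and 17.8 ± 1.43 in mock.

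The middle of the order differed between the groups. In mock, ABCC2 (mean 97.9, range 88.6 to 107 normalised counts per kilobase), ABCC3 (83.7 ± 12.1) and ABCC10 (82.7 ± 3.60) held ranks 4 to 6, and the ranges of neighbours among them overlapped. With CDO1, ABCC2 at 45.2 ± 3.50 held rank 7 of 8, below and separate from ABCC5 at 69.0 ± 2.61. With the longest coding transcript as the length, ABCC2 moved from rank 5 to rank 7. The order of ABCC3, ABCC5 and ABCC10 depended on the length used with CDO1, but not in mock.

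ABCB1 made up more of the summed level of the 8 genes with CDO1. The sum was 2027 ± 31.5 normalised counts per kilobase with CDO1 and 1649 ± 23.7 in mock (SD, n = 3). Without ABCB1 it was 817 ± 10.5 and 894 ± 16.6, so the larger total came with ABCB1, and the other 7 together were lower. The share of ABCB1 was 60.1%, 58.5% and 60.5% in CDO1 replicates 1 to 3 and 46.2%, 43.9% and 47.0% in mock replicates 1 to 3. Such sums are a description of these libraries, and they were not tested.

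Ratios within a library do not depend on how libraries are scaled to each other. ABCB1 per kilobase was 25.8, 24.97 and 29.9 times ABCC2 in CDO1 replicates 1 to 3 and 7.23, 8.04 and 7.91 times in mock replicates 1 to 3, with no overlap. That separation had to follow, because ABCB1 was higher and ABCC2 lower in every CDO1 library, and it is not a further result. The ratio of the basolateral ABCC3 to the apical ABCC2 was 1.61, 1.78 and 1.79 with CDO1 and 0.729, 1.102 and 0.770 in mock, also with no overlap. ABCC2 alone was already separate between the groups, so this ratio is not independent of its fall. ABCB1 over ABCG2, the pair that rose, was 39.1, 39.2 and 43.7 with CDO1 and 41.7, 38.0 and 48.2 in mock, and these values overlapped.

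**Figure D3:**
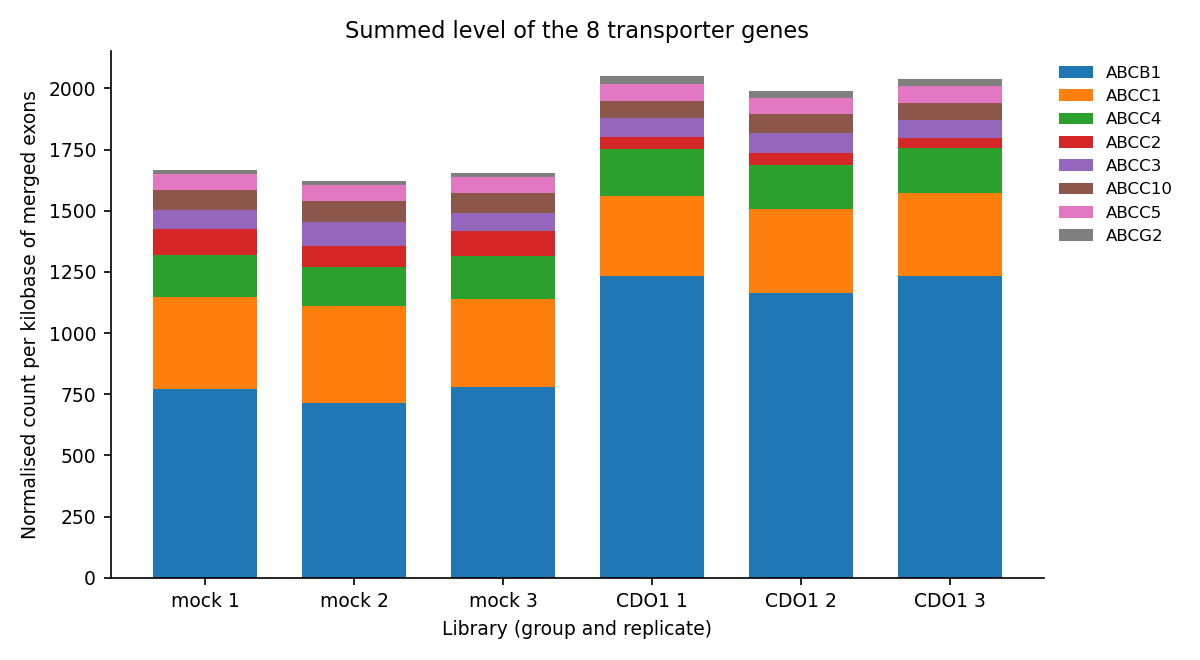
Stacked normalised counts per kilobase of merged exons of the 8 transporter genes in each library. ABCB1, the lowest segment, takes 58.5% to 60.5% of the bar with CDO1 and 43.9% to 47.0% in mock, and the ABCC2 segment is smaller in all 3 CDO1 libraries.

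The direction of all 8 genes was the same in limma, in edgeR and DESeq2 on the recovered whole reads, and in the authors' deposited table. In edgeR the log2 fold changes of ABCB1, ABCG2 and ABCC2 were 0.68 (adjusted p = 3.07e-08), 0.74 (0.000158) and -1.12 (2.98e-08), where 35.7% of genes tested passed. In DESeq2 they were 0.68 (adjusted p = 5.35e-34), 0.74 (0.000516) and -1.12 (1.27e-24), where 27.4% of genes passed. In the authors' deposited table they were 0.67 (adjusted p = 9.72e-34), 0.63 (0.000412) and -1.05 (4.50e-25), where 15.9% of genes passed. That share is 4325 of all 27134 genes, whereas DESeq2 passed 4265 of 15555 and edgeR 5423 of 15184. The shares therefore do not rank how strict these tests were. Equal library totals and removal of each library's trend with GC content moved no member across 0, and the same 5 members were called under both. Over all genes, 5147 were called with equal library totals and 6307 with the GC trend removed, against 5229 in the main limma fit. Keeping a call is thus easier with the GC trend removed.

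Overlapping genes were scarce beside the transporters. RUNDC3B, which lies across the ABCB1 locus on the opposite strand, was at 37.2 ± 6.38 normalised counts with CDO1 and 46.1 ± 6.27 in mock (SD, n = 3; adjusted p = 0.325 in limma). DLK2, which overlaps the end of ABCC10, was at 32.1 ± 4.57 and 47.5 ± 10.3, and the antisense gene ABCC5-AS1 was listed at 0 in all mock libraries. The strand setting of the read counting is not given in the sources used here. How reads that match both ABCB1 and its close paralog ABCB4 were assigned is not given either.

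The nearest protein-coding gene on each side of every transporter was also read, by a rule applied after the transporters' values were known. Of 16 such genes 13 were tested, and 2 rose and 5 fell, where 11.3% of all genes rose and 12.7% fell. ABCB4, the phosphatidylcholine translocator next to ABCB1, was at 43.3 ± 2.30 normalised counts with CDO1 and 23.7 ± 5.85 in mock, a 1.83-fold rise (SD, n = 3; adjusted p = 0.00952 in limma). Its direction was the same in DESeq2, where it did not pass (adjusted p = 0.0510). PPM1K, a mitochondrial phosphatase next to ABCG2, rose from 384 ± 22.1 to 604 ± 46.2 (log2 fold change 0.65; adjusted p = 2.64e-06 in limma). Beside ABCC3, which did not pass, the calcium channel gene CACNA1G fell from 87.1 ± 12.7 to 40.4 ± 5.78 (log2 fold change -1.09; adjusted p = 0.000118). The calls of ABCB4, PPM1K and CACNA1G held in limma with each of the 6 libraries left out in turn. Those of ANKRD40, CUTC, TJAP1 and ZNF318, which fell by 0.20 to 0.24 on the log2 scale, ended without at least 1 library: without mock replicate 1 for ANKRD40 (adjusted p = 0.0525) and CUTC (0.0816), and without CDO1 replicate 3 for TJAP1 (0.0806) and CDO1 replicate 1 for ZNF318 (0.172).

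The genes closest in pattern to ABCC2 and ABCG2 were sought among 10549 protein-coding genes with a mean of at least 100 normalised counts. The measure was the root mean square difference between log2 values, each gene centred on its mean over the 6 libraries. For ABCC2 these were ARHGEF10 (0.05), the retinaldehyde dehydrogenase ALDH1A3 (0.08) and NAV1 (0.09), which were at 308 ± 22.7 against 685 ± 35.1, 344 ± 29.6 against 734 ± 53.1 and 203 ± 22.2 against 467 ± 13.3 normalised counts (CDO1 against mock; SD, n = 3). For ABCG2 they were KLHL4 (0.04), the oxidase CYP1B1 (0.04) and the stress sensor kinase ERN2 (0.05). CYP1B1 stood at 238 ± 6.56 with CDO1 and 137 ± 11.2 in mock. With groups this far apart, the measure mostly reflects the size of the difference between groups.

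The rest of the ABC superfamily changed in both directions. Of 40 other ABC genes 35 were in the table and 29 were tested; 6 rose, 7 fell and 16 did not pass. That is 44.8% called, where 24.0% of all genes were, and the median log2 fold change was 0.00. ABCA3, a lipid transporter of lamellar bodies, fell 2.15-fold, from 197 ± 10.6 to 91.4 ± 6.30 normalised counts (SD, n = 3; adjusted p = 5.20e-07 in limma), and ABCA5 fell 2.12-fold. ABCA2 fell from 3931 ± 513 to 3036 ± 125. ABCF1, a translation factor with no transmembrane domain, rose from 2973 ± 92.5 to 3585 ± 74.8. The chloride channel CFTR was at 323 ± 14.1 against 303 ± 24.2 (adjusted p = 0.477 in limma), and ABCC6, the neighbour of ABCC1, at 33.5 ± 7.56 against 54.5 ± 26.6 (0.113). Of the 13 calls, 7 held with each library left out in turn.

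Other efflux routes gave 2 rises and no fall among 10 genes, or 20% called against 24.0% of all genes, a share no higher than the background. SLC51B, which with SLC51A exports bile acids across the basolateral face, rose 5.60-fold, from 8.85 ± 0.972 to 49.5 ± 4.03 normalised counts. The partner subunit SLC51A was at 33.3 ± 2.49 with CDO1 against 40.7 ± 9.71 in mock (adjusted p = 0.458 in limma). The copper and platinum exporters ATP7A and ATP7B and the vault protein MVP did not pass, with log2 fold changes of 0.13, 0.10 and 0.15.

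Drug uptake carriers gave 2 rises and 3 falls among 28 tested (17.9% called, below the 24.0% of all genes). The monocarboxylate carrier SLC16A1 rose 1.20-fold, and SLCO3A1 fell from 24.8 ± 5.19 to 8.52 ± 4.06 normalised counts (SD, n = 3; adjusted p = 0.00285 in limma). The oligopeptide carrier SLC15A1 fell 2.20-fold, a call that ended without CDO1 replicate 3 (adjusted p = 0.0565 in limma). SLC29A1, the nucleoside carrier, was at 3590 ± 147 against 3637 ± 126 (adjusted p = 0.843 in limma), and SLC31A1, the copper carrier, had a log2 fold change of 0.12 (adjusted p = 0.171 in limma).

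Among 20 tested transcription factors known to act on efflux transporter genes, 4 rose, 1 fell and 15 did not pass, or 25% called, close to the 24.0% of all genes. HNF4A, at 964 ± 84.2 normalised counts with CDO1 and 591 ± 31.6 in mock (SD, n = 3), rose 1.63-fold (adjusted p = 3.41e-07 in limma), and VDR, the vitamin D receptor, 1.27-fold (adjusted p = 0.000292). NFYA, a subunit of the CCAAT-binding factor NF-Y, fell by 0.23 on the log2 scale (adjusted p = 0.0204 in limma), and the call ended without CDO1 replicate 1 (0.106), CDO1 replicate 2 (0.0702) or mock replicate 1 (0.134). EPAS1 rose by 0.18 on the log2 scale, and its call ended with equal library totals (adjusted p = 0.0526 in limma) and without CDO1 replicate 1 (0.0966), CDO1 replicate 3 (0.0817) or mock replicate 3 (0.0525). Of the sensors of xenobiotics and electrophiles, AHR and NFE2L2 did not pass. AHR was at 1949 ± 76.2 against 2018 ± 124 normalised counts (adjusted p = 0.615 in limma) and NFE2L2 at 1432 ± 188 against 1509 ± 123 (0.532). NR1I2 and NR1H4 were among the 22 factors listed but were not tested. NR1I3 was scarce, at 9.94 ± 0.142 against 7.03 ± 1.44.

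Anchors of apical transporters gave 2 rises and 2 falls among 9 (44.4% called, against 24.0% of all genes). The ezrin family member MSN fell 2.68-fold, from 2527 ± 35.3 to 944 ± 22.4 normalised counts (SD, n = 3; adjusted p = 1.03e-12 in limma). RDX, which holds ABCC2 at the canalicular membrane of hepatocytes, was at 2875 ± 183 against 2864 ± 213 (adjusted p = 0.960 in limma). EZR fell by 0.14 on the log2 scale, and its call ended without CDO1 replicate 1 (adjusted p = 0.108 in limma), CDO1 replicate 2 (0.0585), CDO1 replicate 3 (0.103) or mock replicate 1 (0.191), and with no filter on low values (0.0510). The recycling motor MYO5B rose 1.23-fold and the kinase PIM1, known to act on ABCG2, rose 1.30-fold. The scaffold NHERF1 was at 3986 ± 176 against 3914 ± 314.

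Of 29 tested enzymes that make the conjugates these pumps carry, 8 rose and 4 fell (41.4% called, against 24.0% of all genes, 11.3% higher and 12.7% lower), with a median log2 fold change of 0.10. GSTM3 rose 1.77-fold, GSTM4 1.53-fold, the sulfotransferase SULT2B1 1.58-fold and GSTK1 1.26-fold, while SULT1A1 fell 1.39-fold and GSTO2 1.28-fold. The GSTM, GSTT2, SULT1A and UGT1A genes are near-identical or share exons, so their reads may be split. The glucuronidation enzyme UGT1A1 was at 10.5 ± 7.14 against 8.46 ± 8.24 normalised counts. Of 7 genes of glutathione metabolism 2 rose (28.6% called), GGT1 1.39-fold and CHAC1 1.35-fold. The CHAC1 call ended without CDO1 replicate 1 (adjusted p = 0.103 in limma), CDO1 replicate 2 (0.0759) or mock replicate 3 (0.0562). GCLC, GCLM, GSS, GSR and SLC7A11 did not pass (adjusted p = 0.0620, 0.160, 0.481, 0.414 and 0.914 in limma). GCLC, higher by 0.15 on the log2 scale, did pass in edgeR (adjusted p = 0.0394) and in limma with the replicate block (0.0331), but not in DESeq2 (0.0920). GCLM, GSS, GSR and SLC7A11 passed in none of these. Glutathione synthesis itself was not measured.

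Of 21 tested genes of phase I oxidation and other drug metabolism, 3 rose and 2 fell (23.8% called, close to the 24.0% of all genes). CYP1B1 rose 1.74-fold, the electron donor CYB5A 1.47-fold and CYP2J2 1.34-fold, and the thymidine phosphorylase TYMP fell 2.31-fold, from 189 ± 23.8 to 81.7 ± 16.3 normalised counts (SD, n = 3; adjusted p = 3.12e-06 in limma). The oxidase CYP1A1 fell from 39.6 ± 16.9 to 18.4 ± 3.55 (adjusted p = 0.0143 in limma). Its call ended without mock replicate 1 (adjusted p = 0.136 in limma) or CDO1 replicate 1 (0.0632). CYP3A4 was at 2.96, 3.28 and 3.67 normalised counts with CDO1 and at 20.6, 1.95 and 0 in mock, so its mock level rests on replicate 1. Over the 8 related lists together 48 of 153 tested genes were called (31.4%, against 24.0% of all genes), and 30 of them held with each library left out in turn.

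**Figure D4:**
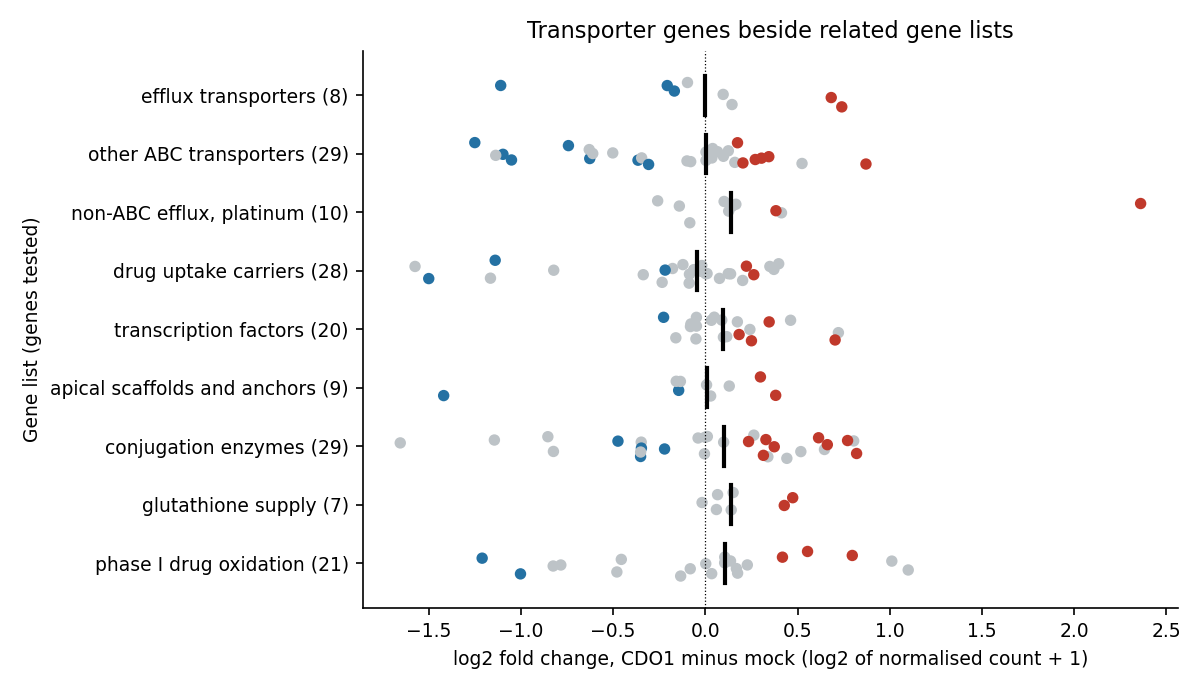
Change, as a log2 fold change of CDO1 over mock, of each tested gene of the 8 transporters and the 8 related lists, with numbers tested in parentheses. Genes called higher in limma are red, those called lower blue and the rest grey; the black bar is the median of a list, and medians lie between -0.04 and 0.14.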

How the data were processed

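RNA-seq of 6 libraries was compared, 3 with CDO1 overexpression and 3 mock. STAR 2.5.1b, DESeq2 1.10.1 and the genome build GRCh38 are named per the submitters' processing notes. What counted the reads, and on which annotation, is not given in the sources used here. Signal columns deposited by the authors are gene counts divided by a size factor (0.884 to 1.12). Undoing that division recovered whole reads for 100% of entries (tolerance 0.001). The authors' log2 fold change and p-value columns are their own comparison, per the file headers.

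The main test was limma 3.58.1 (trend, R 4.3.3) on log2 normalised counts with a pseudocount of 1, keeping genes whose mean reached 1, with Benjamini-Hochberg adjustment over all genes at 0.05. Fold values are ratios of mean normalised counts. edgeR 4.0.16 called 5423 of 15184 genes and DESeq2 1.42.0 called 4265 of 15555 on the recovered reads, against 5229 of 21775 in limma. Names came from a table holding 26577 of the identifiers, and lengths, coordinates and GC content from GENCODE 29 on GRCh38, which holds 26742. Within groups, library pairs differed beyond sampling noise (chi-square per degree of freedom 2.10 to 8.29). The scripts were tested on simulated data. The members, lists and rules were chosen with earlier results of these data known. The genes named are the 8 members, CDO1, up to 4 called genes per list with the smallest p, any other list gene with its values, and the 3 genes nearest in pattern to each of the 2 called members with the largest change and a mean of at least 100. Some list genes are not reported here by name. Alternatives were the filter, pseudocount, threshold, a minimum change, edgeR, DESeq2, equal library totals, the GC trend (lowess span 0.3), the replicate block, each library left out and the authors' table.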

Additional observations from a re-analysis of the deposited data

How the results depend on the processing

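ABCB1, ABCG2 and ABCC2 kept their direction and their call under all 17 alternative fits, with log2 fold changes of 0.61 to 0.71, 0.63 to 0.78 and -1.18 to -1.05. ABCC1 was called in 13 of 17 and ABCC10 in 11 of 17, both always lower. The log2 fold change of ABCC3 ranged from -0.16 without mock replicate 3 to 0.019 without mock replicate 2, where its sign reversed, and the cause was not tested. At an adjusted p under 0.01, and when a change of 0.5 on the log2 scale was also required, the members called lower were 1 under each. With each library left out in turn, the members called higher were 2 to 3 and lower 1 to 3, all genes higher 1749 to 2607 and lower 2162 to 2885, and list genes higher 22 to 30 and lower 10 to 19. At an adjusted p under 0.01, 1543 genes were higher, and 10 list genes were lower. With the minimum change, 640 genes were higher and 1631 lower, and 9 list genes were higher and 10 lower. These follow from the stricter rule. Under the replicate block the members called were 3 higher and 3 lower, with ABCC4 added (adjusted p = 0.0374 in limma), and 5918 of all genes were called against 5229. Same-numbered libraries deviated together weakly (Pearson's r across genes 0.08, 0.30 and 0.09 for replicates 1 to 3). CDO1 replicates 2 and 3 were closest to the mock library of the same number, but CDO1 replicate 1 was closest to mock replicate 3 (0.19). These values do not settle whether the libraries were paired. Depth limits ABCG2 most, at 72 reads in its shallowest library.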
